A study of Mus musculus with 9 samples.

Results

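Expression of 10 genes of vascular inflammation and cytokine response was followed in mouse brain tissue after sevoflurane, an inhaled anesthetic. The 10 genes were Icam1, Vcam1, Nfkbia, Socs3, Stat3, Osmr, Il4ra, Il1r1, Ptgs2 and Lcn2, chosen by name among the 49585 genes of the count table. All 10 were in the table. Of these, 9 had enough reads to be tested together with 14140 genes in all, and Lcn2 did not, with 31 reads over the 9 libraries. The study compared 3 groups of male wild-type C57BL/6J mice aged 8 to 15 weeks, with 3 RNA-seq libraries in each group. CTRL mice received no sevoflurane and could move about for 120 min. The 0.7 MAC mice were held at 0.7 MAC sevoflurane over 120 min, where MAC is the minimum alveolar concentration, the unit of dose for inhaled anesthetics. In the 2.0 MAC mice, 30 min at 2.0 MAC, the dose used to bring about gasping, came before 90 min at 0.7 MAC. The sevoflurane was given in pure oxygen, and the methods of the study describe tracheal intubation and a heating pad. The sources used here do not say whether the CTRL mice also breathed oxygen, so sevoflurane, oxygen and handling cannot be told apart in the comparisons with CTRL. All mice were perfused with cold buffer to clear blood cells from the brain.

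The tissue was labelled hypothalamus, and the methods describe the region left after the cortex, cerebellum and olfactory bulb had been dissected away, although the extraction text also names whole brain. Exon reads summed to between 5321491 and 7178568 per library, with a median of 6382725. Of 13 marker genes of the hypothalamus, 10 had enough reads to be tested. The level summed over all 13 lay between 48.9 and 73.0 CPM (counts per library scaled to a common normalized library size) in the CTRL and 0.7 MAC libraries and between 90.4 and 96.4 CPM in the 2.0 MAC libraries. Marker genes of the cortex were read in every library, at a summed 248 to 512 CPM in CTRL, 468 to 599 CPM at 0.7 MAC and 108 to 160 CPM at 2.0 MAC. Those of the striatum summed to 705 to 909 CPM, 547 to 876 CPM and 260 to 290 CPM. The 2.0 MAC libraries stood apart by these lower cortex and striatum sums. The 16 endothelial markers were all read in every group and summed to 533 to 585 CPM in CTRL, 465 to 564 CPM at 0.7 MAC and 529 to 585 CPM at 2.0 MAC. The labels do not state that each library came from a separate animal, so p-values measure the spread between libraries. In bulk tissue, fewer cells of a type and less RNA per cell cannot be told apart.

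These genes belong to the circuits by which cytokines act on vessel walls, glia and neurons. Interleukin 1 and tumor necrosis factor act through NF-kappaB, a transcription factor that is held in the cytoplasm by inhibitors such as the product of Nfkbia. Cytokines of the interleukin 6 family, oncostatin M among them, act through the shared receptor chain gp130 and JAK kinases on STAT3, and SOCS3 shuts this signal off. In inflamed brain vessels, endothelial cells are known to put adhesion molecules on their surface, and COX-2, the enzyme encoded by Ptgs2, makes prostaglandins.

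At 0.7 MAC, 1 of the 9 tested genes, Nfkbia, was higher than in CTRL at an adjusted p under 0.05, where 0.884% of all tested genes were higher. At 2.0 MAC, Nfkbia and Icam1 were higher than in CTRL (2 of 9, against 3.36% of all tested genes) and Ptgs2 was lower (1 of 9, against 6.42%). Between the doses, Ptgs2 alone of the 9 differed and was lower at 2.0 MAC, where 8.73% of all tested genes were lower. By edgeR, 0 of the 9 genes were lower at 0.7 MAC than in CTRL (0.743% of all tested genes), with 1 at an unadjusted p under 0.05. Between the doses 0 were higher at 2.0 MAC (5.98% of all tested genes), with 0 at an unadjusted p under 0.05. DESeq2 gave 0 in both cases. With the 2-fold threshold of the study added, 0 of the 9 passed at 0.7 MAC against CTRL (0.325% of all tested genes), 2 at 2.0 MAC against CTRL, namely Icam1 and Ptgs2 (1.36%), and 1 between the doses, Ptgs2 (1.44%). The median log2 fold change of the 9 genes was 0.33 at 0.7 MAC against CTRL, 0.20 at 2.0 MAC against CTRL and 0.11 between the doses, and the medians of all tested genes were within 0.01 of 0. The first 2 of these comparisons share the CTRL libraries.

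**Figure D1:**
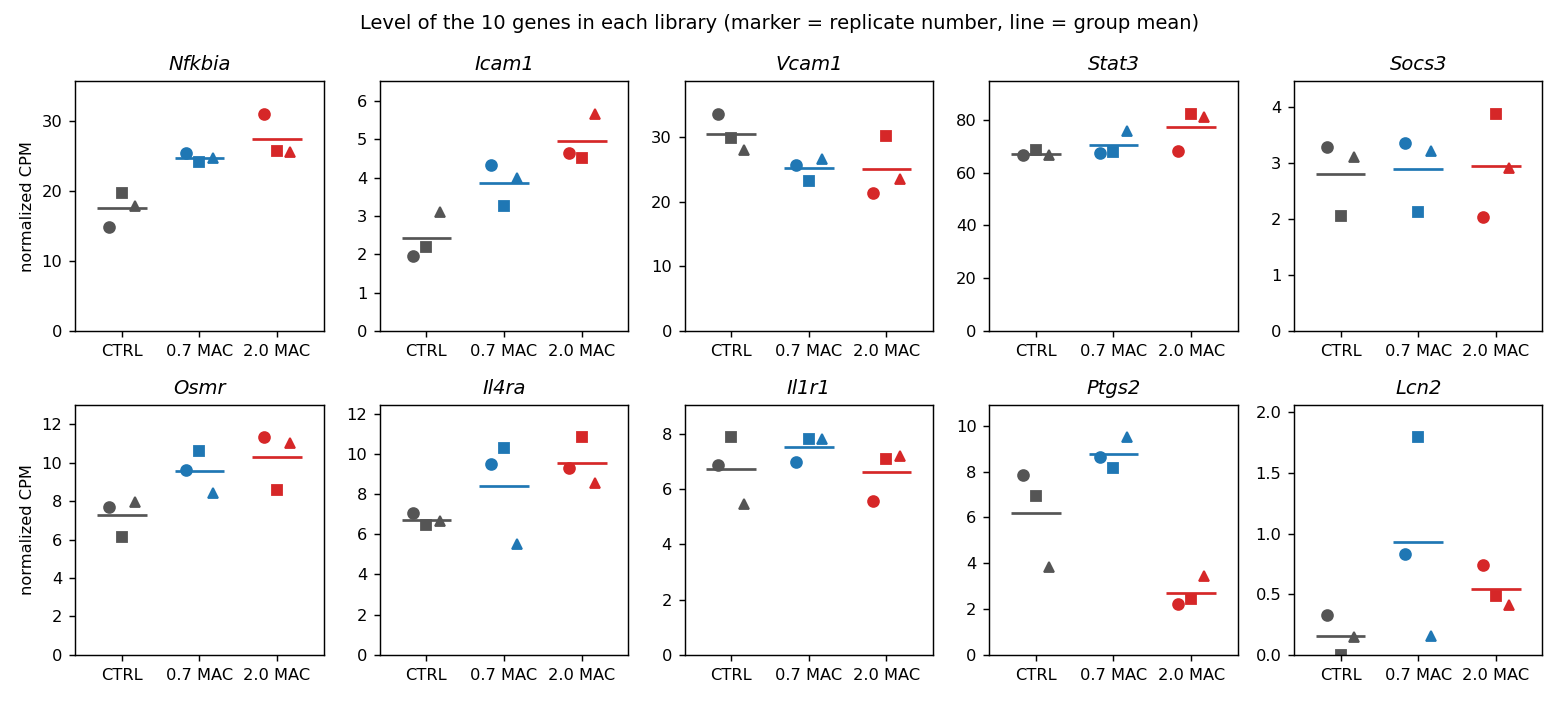
Normalized level of each of the 10 genes in CPM (vertical axes, from 0) in the 9 libraries by group. Each point is 1 library, the symbol shape gives the replicate number and the line the group mean. The libraries of both sevoflurane groups lay above CTRL for Nfkbia and Icam1, and the 2.0 MAC libraries lay below all others for Ptgs2.

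The levels of the 10 genes differed widely. On the RPKM scale, which corrects for gene length, Nfkbia had the highest mean level over the 9 libraries, 4.99 RPKM, followed by Stat3 at 2.54 RPKM and Vcam1 at 1.86 RPKM. The ranges of these 3 genes over the libraries did not overlap, at 3.09 to 6.93, 2.29 to 3.03 and 1.51 to 2.17 RPKM. The next 6 genes lay close together, from Il4ra at 0.480 RPKM through Ptgs2 at 0.429, Il1r1 at 0.369, Icam1 at 0.343 and Socs3 at 0.337 to Osmr at 0.253 RPKM. Neighbours among these 6 overlapped over the libraries. Lcn2 was last at 0.0697 RPKM, and its highest library, at 0.220 RPKM, overlapped with Osmr. Socs3 was counted at 11 to 24 reads per library, Icam1 at 12 to 41 and Ptgs2 at 12 to 62, so that small differences in these 3 genes were not detectable at this depth.

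Nfkbia encodes the NF-kappaB inhibitor alpha, whose transcription is known to be switched on by NF-kappaB itself as a feedback. It lies at chr12:55489410-55492647 on the minus strand (GRCm38). The CTRL libraries held 14.9, 19.7 and 17.9 CPM, the 0.7 MAC libraries 25.4, 24.1 and 24.7 CPM and the 2.0 MAC libraries 31.0, 25.7 and 25.5 CPM. All 6 sevoflurane libraries were above the 3 CTRL libraries, and the 2.0 MAC libraries were above those of 0.7 MAC by a small margin. The difference from CTRL was 1.41-fold at 0.7 MAC (log2 fold change 0.50, SE 0.12, n = 3, adjusted p = 0.0407, edgeR quasi-likelihood test) and 1.56-fold at 2.0 MAC (0.64, SE 0.12, adjusted p = 0.00188). Between the doses the log2 difference was 0.14 (95% interval -0.09 to 0.37, adjusted p = 0.465). The call at 2.0 MAC, at any fold, was made in each of 21 fits, the one given here and its alternatives, but a fold of 1.56 does not reach the 2-fold threshold that was also tried. The call at 0.7 MAC was made in 9 of the 21 fits, and among those that left out a library it was lost on leaving out CTRL replicate 1, 2 or 3, 0.7 MAC replicate 1 or 2, or 2.0 MAC replicate 2, with adjusted p from 0.0510 to 0.147.

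Icam1 encodes an adhesion molecule of endothelial cells and microglia that binds beta2 integrins on leukocytes. It lies at chr9:21015985-21028817 on the plus strand. It was counted at 1.97, 2.20 and 3.10 CPM in CTRL, 4.32, 3.26 and 3.98 CPM at 0.7 MAC and 4.64, 4.52 and 5.66 CPM at 2.0 MAC. In CPM the 3 groups did not overlap and were ordered by dose. On the RPKM scale the doses overlapped, at 0.313 to 0.401 RPKM at 0.7 MAC and 0.390 to 0.502 RPKM at 2.0 MAC. Both were above CTRL (0.160 to 0.266 RPKM). Icam1 was 2.03-fold higher at 2.0 MAC than in CTRL (log2 fold change 1.02, SE 0.25, adjusted p = 0.0155). At 0.7 MAC the log2 difference from CTRL was 0.66 (SE 0.26, adjusted p = 0.217) and between the doses it was 0.36 (95% interval -0.12 to 0.84, adjusted p = 0.347). The call at 2.0 MAC rested on few reads, 12, 14 and 21 in CTRL against 25, 28 and 41. It was lost without CTRL replicate 1 (adjusted p = 0.0810), without CTRL replicate 2 (0.0512), without 2.0 MAC replicate 3 (0.0774) and with DESeq2 (0.0597).

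Because Nfkbia and Icam1 were both higher at 2.0 MAC than in CTRL, the 250 bases before their start sites are shown (RefSeq, GRCm38.p6, 5′ to 3′ on the strand of the gene). They are chr12:55492648-55492897 on the minus strand for Nfkbia and chr9:21015690-21015939 on the plus strand for Icam1. Capitals mark a match to the NF-kappaB consensus in Nfkbia, 29 to 20 bases before the start, and to the STAT consensus TTCNNNGAA in Icam1, 42 to 34 bases before the start.
Nfkbia: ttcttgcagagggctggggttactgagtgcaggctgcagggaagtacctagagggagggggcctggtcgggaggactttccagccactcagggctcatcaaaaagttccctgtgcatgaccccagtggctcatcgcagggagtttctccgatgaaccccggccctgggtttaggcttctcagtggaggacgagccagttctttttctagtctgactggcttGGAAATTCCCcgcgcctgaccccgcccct
Icam1: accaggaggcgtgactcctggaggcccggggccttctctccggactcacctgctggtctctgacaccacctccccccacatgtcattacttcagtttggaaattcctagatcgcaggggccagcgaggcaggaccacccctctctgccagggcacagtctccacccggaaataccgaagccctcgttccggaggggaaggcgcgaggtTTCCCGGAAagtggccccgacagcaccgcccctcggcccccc
Promoters of 9 of the 10 genes were in the RefSeq table, and Vcam1 was not. Both strands were searched for 5 motifs, and matches to different motifs did not overlap. The NF-kappaB consensus was searched as GGGRNWYYCC, where R is A or G, W is A or T, Y is C or T and N is any base. It was found for 2 of the 9 genes, Nfkbia and Il1r1, and in 3.90% of all 32841 promoter windows of this length. The Icam1 window holds ggaaattcct, which differs from the marked Nfkbia letters in the last base only and so was not counted as a match. Some genes, Il1r1 among them, have more than 1 window. Of the 27018 genes with a window, 4.46% held the NF-kappaB consensus. The STAT consensus was found for Icam1 and Socs3, and in 7.02% of windows and 8.13% of genes. In Socs3 the letters TTCTTAGAA stood 154 to 146 bases before the RefSeq start. The core of the cAMP response element, TGACG, was found for Il1r1 (17.8% of windows, 19.8% of genes). The AP-1 consensus TGANTCA (6.75% of windows, 7.82% of genes) and the CArG box (1.47% of windows, 1.62% of genes) were found for none of the 9. These matches describe letters in the windows only.

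Vcam1 encodes the adhesion molecule that binds the integrin made of alpha4 and beta1 chains. Its values went the other way from those of Icam1. It was counted at 33.6, 29.8 and 28.0 CPM in CTRL, 25.6, 23.2 and 26.7 CPM at 0.7 MAC and 21.3, 30.2 and 23.5 CPM at 2.0 MAC. The 0.7 MAC libraries were all below CTRL, while 1 of the 2.0 MAC libraries lay within the CTRL range. The log2 differences from CTRL were -0.27 (SE 0.12, adjusted p = 0.279) and -0.28 (SE 0.12, adjusted p = 0.171), and neither passed the test. Without 2.0 MAC replicate 2, the latter was -0.44 with an adjusted p of 0.0403.

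By groups of libraries that do not overlap, Icam1, Nfkbia, Osmr and Ptgs2 were above CTRL at 0.7 MAC (4 of 9, against 8.8% of all tested genes) and Vcam1 was below it (1 of 9, against 9.25%). At 2.0 MAC, Icam1, Nfkbia, Osmr and Il4ra were above CTRL (4 of 9, against 13.1%) and Ptgs2 was below it (1 of 9, against 15.2%). Between the doses, Icam1 and Nfkbia were above at 2.0 MAC (2 of 9, against 14.9%) and Ptgs2 was below (1 of 9, against 16.4%). These counts are in CPM and depend on the scale. On the RPKM scale Icam1 overlapped between the doses, while the 2.0 MAC libraries of Stat3 lay above CTRL.

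**Figure D2:**
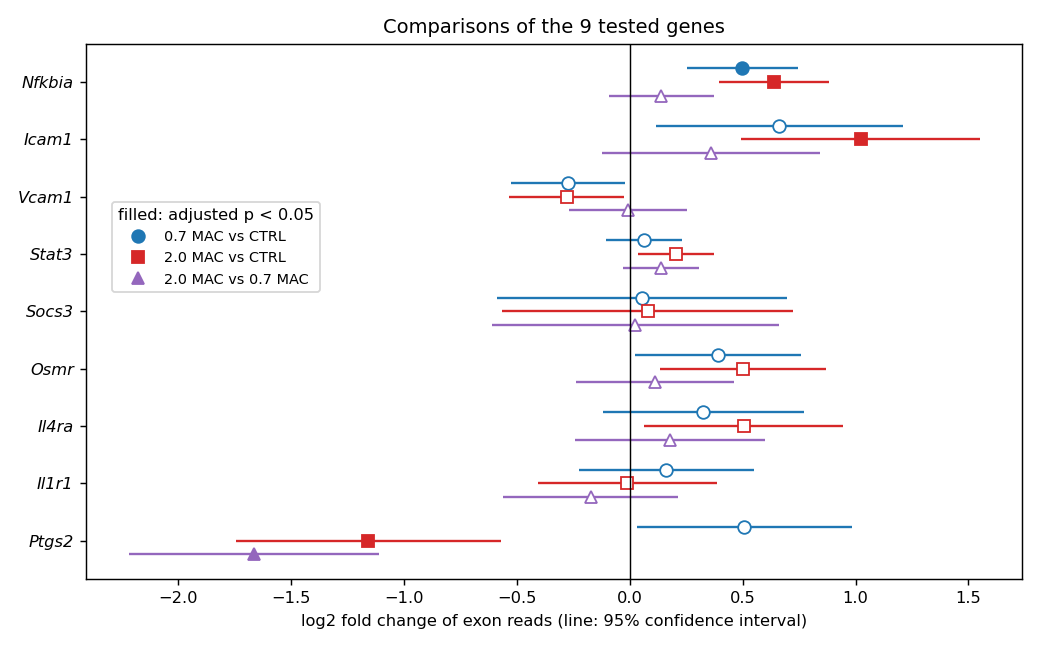
Log2 fold change of exon reads (horizontal axis) of the 9 tested genes in the 3 comparisons, with the 95% confidence interval as a line. Filled symbols passed an adjusted p of 0.05. They are Nfkbia at 0.50 and 0.64 and Icam1 at 1.02 against CTRL, and Ptgs2 at -1.16 against CTRL and -1.67 between the doses.

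In the cytokine receptors, exon reads of Osmr, Il4ra and Il1r1 did not pass the test in any comparison. Osmr encodes the chain that pairs with gp130 to bind oncostatin M. It was counted at 7.70, 6.14 and 7.97 CPM in CTRL, 9.61, 10.6 and 8.43 CPM at 0.7 MAC and 11.3, 8.55 and 11.05 CPM at 2.0 MAC. All 6 sevoflurane libraries were above CTRL, and the 2 doses overlapped. The log2 difference from CTRL was 0.39 at 0.7 MAC (SE 0.17, adjusted p = 0.290) and 0.50 at 2.0 MAC (SE 0.17, adjusted p = 0.0838). Il4ra encodes the receptor chain shared by interleukin 4 and interleukin 13. It was counted at 7.04, 6.45 and 6.64 CPM in CTRL, 9.47, 10.3 and 5.51 CPM at 0.7 MAC and 9.27, 10.8 and 8.56 CPM at 2.0 MAC. The 2.0 MAC libraries were above CTRL, and 1 library of 0.7 MAC was the lowest of all 9. The log2 difference from CTRL was 0.33 at 0.7 MAC (SE 0.21, adjusted p = 0.502) and 0.50 at 2.0 MAC (SE 0.21, adjusted p = 0.151). Il1r1 encodes the signaling receptor of interleukin 1. Its libraries lay between 5.46 and 7.87 CPM with overlap in every comparison, and its log2 difference between 2.0 MAC and CTRL was -0.01 (95% interval -0.41 to 0.39).

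Intron reads, which come mostly from RNA that is not yet spliced, were tested in a separate fit of 16142 genes. Of the 10 genes, 6 had enough intron reads, namely Nfkbia, Vcam1, Stat3, Osmr, Il4ra and Il1r1. Of the reads of Osmr, 60.3% fell in introns, against 34.3% for Il4ra, 48.2% for Stat3 and 77.7% for Il1r1. At 2.0 MAC, intron reads of Osmr and Il4ra were higher than in CTRL (2 of 6, where 4.13% of all genes tested on intron reads were higher). Osmr introns were counted at 4.49, 6.39 and 5.75 CPM in CTRL, 8.04, 8.37 and 7.29 CPM at 0.7 MAC and 10.2, 9.66 and 13.6 CPM at 2.0 MAC. The 3 groups did not overlap and were ordered by dose. The difference at 2.0 MAC from CTRL was 2.01-fold (log2 fold change 1.01, SE 0.17, adjusted p = 0.00258), and it was called without each of the 9 libraries in turn (adjusted p 0.00224 to 0.0150). Il4ra introns were counted at 1.91, 1.64 and 1.77 CPM in CTRL, 3.27, 2.39 and 2.90 CPM at 0.7 MAC and 2.65, 3.09 and 3.95 CPM at 2.0 MAC. All 6 sevoflurane libraries were above CTRL. The difference at 2.0 MAC was 1.83-fold (0.88, SE 0.23, adjusted p = 0.0338), and it was lost without CTRL replicate 1, 2 or 3 or 2.0 MAC replicate 2 or 3, with adjusted p up to 0.147.

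At 0.7 MAC against CTRL, 0 of the 6 genes passed the edgeR test on intron reads (4.23% of all genes tested on intron reads), with 3 at an unadjusted p under 0.05. The log2 differences were 0.51 for Osmr (adjusted p = 0.122), 0.69 for Il4ra (adjusted p = 0.127) and -0.43 for Il1r1 (adjusted p = 0.190). Il1r1 was the 1 gene whose exon and intron values had opposite signs at 0.7 MAC, 0.16 and -0.43. Between the doses 0 of the 6 passed (6.86%), with 1 at an unadjusted p under 0.05, which was Osmr at 0.50 (adjusted p = 0.0839). DESeq2 was not run on intron reads. Il1r1 shares its strand with the gene Gm38070, Stat3 overlaps Stat5a on the other strand, and Icam1, Vcam1 and Il4ra overlap unnamed gene models on the other strand. The sources used here do not say whether strand was used in counting, so reads of such pairs cannot be told apart.

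**Figure D3:**
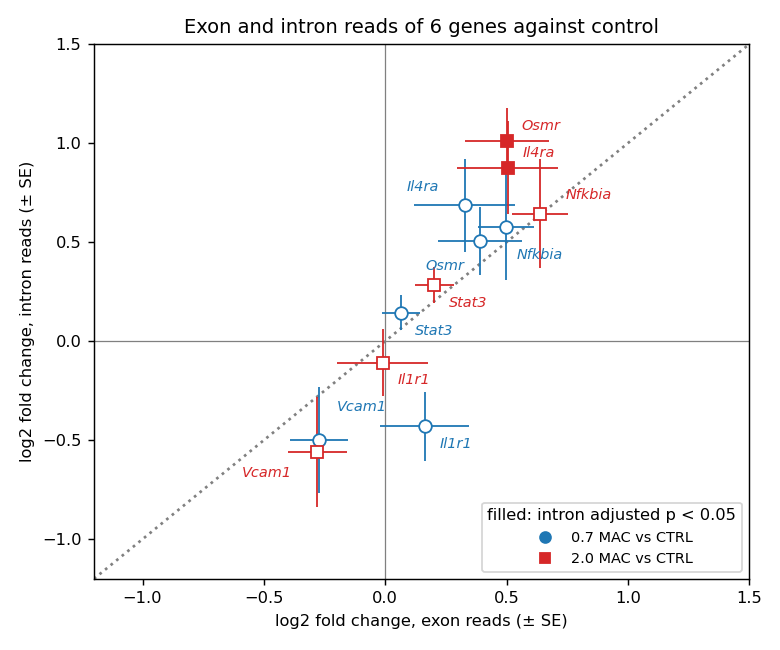
Log2 fold change against CTRL of exon reads (horizontal axis) and intron reads (vertical axis) of the 6 genes tested on both, with bars of 1 SE and a dotted line of equality. Filled symbols passed the intron test. Osmr at 2.0 MAC stood at 0.50 in exon and 1.01 in intron reads, and Il4ra at 0.50 and 0.88.

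When all reads of a gene, exons and introns together, were used, 6 of the 9 genes passed the test at 2.0 MAC against CTRL in place of 3 (10.8% of all genes tested on such reads). Osmr (log2 fold change 0.80, adjusted p = 0.00330), Il4ra (0.67, adjusted p = 0.0237) and Stat3 (0.24, adjusted p = 0.0387) were then higher. Nfkbia (0.67) and Icam1 (1.11) were also higher, and Ptgs2 was lower (-1.14, adjusted p = 0.0162). The same 6 genes passed with uniquely mapped reads (12.7% of all genes tested). With all reads, 0 of the 9 passed at 0.7 MAC against CTRL (3.11% of all genes tested), where Nfkbia was at 0.50 with an adjusted p of 0.0522.

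Ligands of these receptors were close to the limit of detection. Over the 9 libraries together, Il1a and Il1b were counted at 4 reads each, Il1rn, which encodes the receptor antagonist, at 2, Osm at 2, Il6 at 7, Il13 at 4 and Tnf at 6. Il4 was counted at 48 reads and Lif at 68, and neither passed the filter on low counts. The endothelial selectins Sele and Selp, which catch rolling leukocytes, were counted at 5 and 3 reads, and the chemokine Ccl2 at 3. Receptor partners were read at higher levels. Il6st, which encodes gp130, was higher at 2.0 MAC than in CTRL (223 against 195 CPM, log2 fold change 0.20, SE 0.05, adjusted p = 0.0207) and than at 0.7 MAC (0.26, SE 0.05, adjusted p = 0.00213). Lifr, the receptor chain for leukemia inhibitory factor, was higher at 2.0 MAC than at 0.7 MAC (0.23, SE 0.05, adjusted p = 0.00750). Il1rap, the coreceptor of Il1r1, and Il13ra1, the partner of Il4ra, had log2 differences between -0.04 and 0.08 over the 3 comparisons. Il2rg, the other partner of Il4ra, was counted at 10 reads.

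Stat3 was the gene with the most reads, 368 to 586 per library. It was counted at 66.7, 68.5 and 66.6 CPM in CTRL, 67.3, 68.0 and 75.7 CPM at 0.7 MAC and 68.3, 82.3 and 80.9 CPM at 2.0 MAC. The lowest 2.0 MAC library lay within the CTRL range and the other 2 were above it. The log2 difference at 2.0 MAC was 0.20 (SE 0.08, adjusted p = 0.131), and without 2.0 MAC replicate 1 it was 0.28 with an adjusted p of 0.0419. Socs3, the inhibitor that STAT3 induces, was counted between 2.04 and 3.87 CPM, and the 3 groups overlapped. Its log2 difference was 0.05 at 0.7 MAC against CTRL (95% interval -0.59 to 0.69) and 0.08 at 2.0 MAC against CTRL (-0.57 to 0.72).

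Counts in the gene lists that follow stand beside these shares of all tested genes. At 0.7 MAC against CTRL 0.884% were higher and 0.743% lower. At 2.0 MAC against CTRL 3.36% were higher and 6.42% lower. Between the doses 5.98% were higher and 8.73% lower at 2.0 MAC. Among 14 tested genes known as STAT3 targets, 4 were higher and 1 was lower at 2.0 MAC than in CTRL. Cdkn1a, a cell cycle inhibitor that is also induced by other factors, was 2.53-fold higher (log2 fold change 1.34, SE 0.12, adjusted p = 6.41e-06), and 2.07-fold higher at 0.7 MAC (1.05, SE 0.12, adjusted p = 3.62e-04). Gfap, the intermediate filament of astrocytes, was higher at 0.50 (adjusted p = 0.00134), Mcl1, a survival factor, at 0.22 (adjusted p = 0.0307) and Cebpd, a transcription factor of the acute phase, at 0.85 (adjusted p = 0.0399). Junb, an immediate early transcription factor, was lower at -0.62 (adjusted p = 0.00467). Of the 8 astrocyte markers, Gfap and S100b (0.49) were higher at 2.0 MAC than in CTRL and the glutamate transporter Slc1a2 was lower (-0.30). Between the doses 5 of the 8 were higher and 2 were lower at 2.0 MAC. The median log2 fold change of the 8 was 0.20 at 2.0 MAC against CTRL and 0.23 between the doses. Their summed level, in which the most abundant genes weigh most, went the other way. It was 4973 to 5287 CPM at 2.0 MAC, below every library of CTRL (5603 to 6262 CPM) and of 0.7 MAC (5505 to 6462 CPM). Of the 8 oligodendrocyte markers, 3 were lower at 0.7 MAC than in CTRL, Mbp was higher at 2.0 MAC than in CTRL (0.26), and 8 were higher at 2.0 MAC than at 0.7 MAC. They summed to 8777 to 10097 CPM in CTRL, 7089 to 8369 CPM at 0.7 MAC and 9574 to 11524 CPM at 2.0 MAC. The part of these markers in the values of Gfap and of the other genes was not tested. Among 20 tested JAK kinases, other STATs and inhibitors, 1 was lower at 2.0 MAC than in CTRL, Socs6 at -0.32, and between the doses Socs2 and Socs7 were lower at -0.46 and -0.37.

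Among the 16 NF-kappaB subunits, kinases and inhibitors, Nfkb2 was higher at 2.0 MAC than in CTRL (0.70, SE 0.21, adjusted p = 0.0436) and Cyld, a deubiquitinase that restrains the pathway, was lower (-0.24, adjusted p = 0.0316). Of 10 tested NF-kappaB target genes of inflammation, Zfp36, which encodes an RNA-binding protein that degrades cytokine messages, was higher at 2.0 MAC than in CTRL (0.92, SE 0.25, adjusted p = 0.0282) and Cx3cl1, a chemokine made by neurons, was lower (-0.52, adjusted p = 6.89e-04). Cx3cl1 was also lower at 2.0 MAC than at 0.7 MAC (-0.48, adjusted p = 9.19e-04). Csf1, a growth factor of microglia, was lower at 0.7 MAC than in CTRL (-0.39, adjusted p = 0.0281) and higher at 2.0 MAC than at 0.7 MAC (0.45, adjusted p = 0.00145). Irak2, a kinase of interleukin 1 signaling, was higher at 2.0 MAC than in CTRL (0.48, adjusted p = 0.0330). It was the 1 gene called there among 15 tested genes of interleukin 1 and tumor necrosis factor signaling. Between the doses 1 of the 15, Il33, was higher at 2.0 MAC. Of 16 tested genes of leukocyte adhesion, Msn was higher at 2.0 MAC than in CTRL (0.40, adjusted p = 0.0167), and Icam5, an adhesion molecule of forebrain neurons, was lower (-1.42, SE 0.15, adjusted p = 2.75e-05). Itga4, the alpha4 chain of the Vcam1 receptor, was higher at 0.7 MAC than in CTRL (0.57, adjusted p = 0.0275) and lower at 2.0 MAC than at 0.7 MAC (-0.96, adjusted p = 8.33e-05). Between the doses 1 of the 16 was higher and 4 were lower at 2.0 MAC. The higher one was Cd99l2 (0.27, adjusted p = 0.00692). Beside Itga4, the lower ones included Icam5 (-1.77, adjusted p = 3.22e-06) and Ezr, a linker of membrane and actin (-0.53, adjusted p = 0.00319). Over the 10 lists of partner and target genes together, 126 of 185 genes were tested. At 0.7 MAC against CTRL 2.38% of them passed the test, at 2.0 MAC against CTRL 13.5% and between the doses 15.9%, beside 1.63%, 9.78% and 14.7% of all tested genes.

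Ptgs2 was the gene with the largest change among the 9. It encodes COX-2, which is made by excitatory neurons of the forebrain as well as by endothelial cells, and lies at chr1:150100031-150108227 on the plus strand. It was counted at 7.86, 6.93 and 3.84 CPM in CTRL, 8.64, 8.15 and 9.50 CPM at 0.7 MAC and 2.23, 2.42 and 3.45 CPM at 2.0 MAC. The 2.0 MAC libraries were the lowest and the 0.7 MAC libraries the highest, and CTRL replicate 3 lay close to the 2.0 MAC libraries. Ptgs2 was 3.17-fold lower at 2.0 MAC than at 0.7 MAC (log2 fold change -1.67, SE 0.26, adjusted p = 3.75e-04), and this was called at any fold in each of 21 fits and also at the 2-fold threshold. It was 2.23-fold lower at 2.0 MAC than in CTRL (-1.16, SE 0.28, adjusted p = 0.0139). At 0.7 MAC the log2 difference from CTRL was 0.51 (SE 0.22, adjusted p = 0.287). The call at 2.0 MAC against CTRL was lost without CTRL replicate 1 (adjusted p = 0.0827) and without 2.0 MAC replicate 1 (0.0619) or 2 (0.0658).

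Marker genes of the forebrain were also lower at 2.0 MAC. All 6 cortex and all 6 striatum markers were read, and their sums at 2.0 MAC, 108 to 160 CPM and 260 to 290 CPM, were below those of every other library. The endothelial sum at 2.0 MAC overlapped with both other groups. Single endothelial markers moved both ways against CTRL, with 2 of the 16 higher, 4 lower and a median log2 fold change of -0.24. The part of the forebrain markers in the differences of Ptgs2 and of the neuronal genes Icam5 and Cx3cl1 was not tested. Of 15 other tested genes of prostaglandin synthesis, transport and reception, 1 was higher and 1 lower at 2.0 MAC than in CTRL, and 2 were higher at 2.0 MAC than at 0.7 MAC. Ptgds, which encodes a prostaglandin D synthase, was higher at 2.0 MAC than in CTRL (0.41, adjusted p = 8.97e-04) and than at 0.7 MAC (0.42, adjusted p = 4.94e-04). Pla2g4a, the phospholipase that releases arachidonic acid, was higher at 2.0 MAC than at 0.7 MAC (0.79, adjusted p = 0.0158). Abcc4, a prostaglandin exporter, was lower at 2.0 MAC than in CTRL (-0.41, adjusted p = 0.0257). Ptgs1, which encodes COX-1, had log2 differences of -0.33, -0.18 and 0.15 that did not pass the test.

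**Figure D4:**
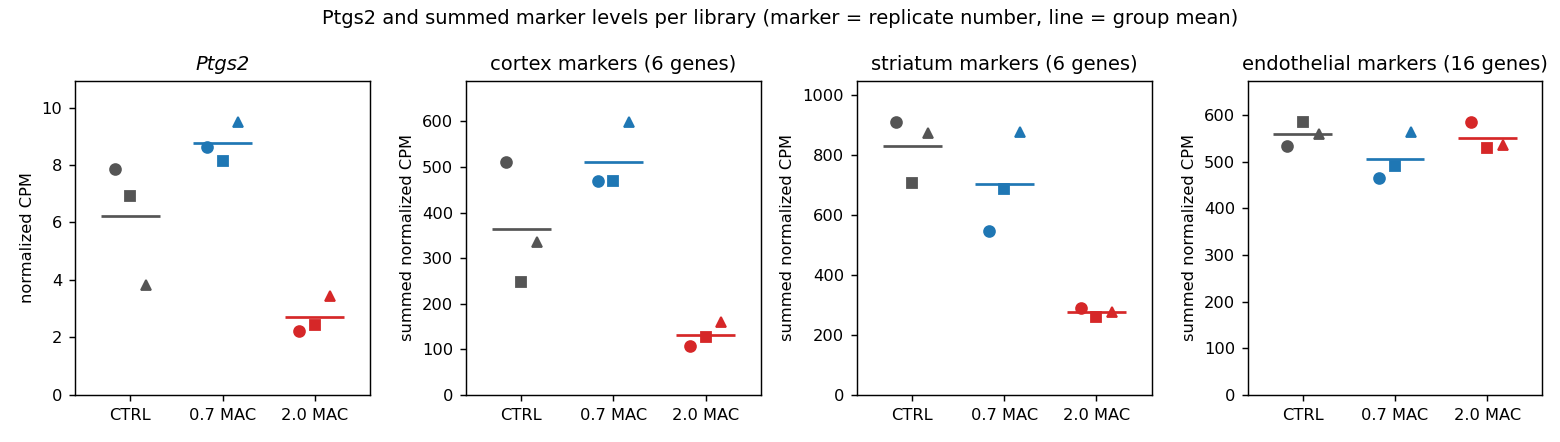
Normalized level of Ptgs2 and summed levels of the cortex, striatum and endothelial marker genes in CPM (vertical axes, from 0) in the 9 libraries by group. Each point is 1 library and each line a group mean. The 2.0 MAC libraries were lowest for Ptgs2 (2.23 to 3.45 CPM), cortex (108 to 160 CPM) and striatum (260 to 290 CPM), and overlapped with the other groups for endothelial markers (529 to 585 CPM).

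Lcn2 encodes lipocalin 2, a protein that binds bacterial siderophores, is made by astrocytes and endothelial cells in inflammation and is stored in neutrophil granules. It was counted at 2, 0 and 1 reads in CTRL, 6, 11 and 1 reads at 0.7 MAC and 4, 3 and 3 reads at 2.0 MAC, too few for a test. In CTRL the count was at or under 3 reads in each library, so no fold change is given. The neutrophil genes S100a8 and Ngp had their highest counts in the same libraries as Lcn2. S100a8 was counted at 6, 0 and 0 reads in CTRL, 17, 27 and 1 at 0.7 MAC and 2, 3 and 1 at 2.0 MAC, and Ngp at 8, 3 and 1, then 15, 24 and 4, then 2, 2 and 3 reads. The 10 leukocyte markers summed to 16.7, 20.5 and 7.97 CPM in the 0.7 MAC libraries, against 5.82 to 10.6 CPM in CTRL and 5.94 to 7.87 CPM at 2.0 MAC. The 5 red blood cell markers summed to 37.9, 37.5 and 5.67 CPM at 0.7 MAC, 3.46 to 7.86 CPM in CTRL and 5.19 to 22.4 CPM at 2.0 MAC. Among the leukocyte markers Ly6g had no read in any library. The part of blood left in the tissue in the Lcn2 counts was not tested. Slc22a17, which encodes a receptor for lipocalin 2, was read at about 400 CPM in each group, with log2 differences between -0.02 and 0.04. Of 9 tested genes of the acute phase and iron handling, Fth1, the ferritin heavy chain, was higher at 2.0 MAC than in CTRL (0.35, adjusted p = 0.00593) and C3, a complement component, was higher at 2.0 MAC than at 0.7 MAC (0.84, adjusted p = 0.0143).

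Markers of the vessel wall were read beside these genes. Of the 16 endothelial markers, 4 were lower at 0.7 MAC than in CTRL, where 0.743% of all tested genes were lower. They were led by the transporter Slco1a4 at a log2 fold change of -0.68 (adjusted p = 0.00201). The other 3 were Tie1 at -0.67, Vwf at -0.45 and Abcb1a at -0.41. At 2.0 MAC against CTRL, 2 were higher, Cdh5, the cadherin of endothelial junctions, at 0.51 (adjusted p = 0.00264), and Slc2a1, the glucose transporter of the barrier, at 0.63 (adjusted p = 0.00652). The 4 that were lower were the same as at 0.7 MAC, Slco1a4 at -0.68 (adjusted p = 2.59e-04), Tie1 at -0.53 (0.0258), Vwf at -0.38 (0.0244) and Abcb1a at -0.35 (0.0274). Of all tested genes, 3.36% were higher and 6.42% lower at 2.0 MAC than in CTRL. The median of the 16 markers was -0.24 at 2.0 MAC against CTRL and -0.35 at 0.7 MAC against CTRL. Pecam1 and Cldn5 did not pass the test in any comparison. Of 12 markers of microglia and macrophages, 1 was lower at 2.0 MAC than in CTRL, Cx3cr1 at -0.55. The 12 summed to 245 to 260 CPM at 2.0 MAC, below every library of CTRL (279 to 313 CPM). At 0.7 MAC they summed to 256 to 297 CPM, which overlapped with both other groups. The 10 markers of pericytes and smooth muscle summed to 303 to 318 CPM at 0.7 MAC, below every library of CTRL (349.6 to 359 CPM) and of 2.0 MAC (337 to 351 CPM). Of these, Acta2, the actin of smooth muscle, was lower at 0.7 MAC than in CTRL (-0.92, adjusted p = 0.0107). The part of the vessel wall markers in the results at 0.7 MAC and at 2.0 MAC was not tested.

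The genes with the most similar profile over the 9 libraries are given as a description, by Pearson's r of log2 CPM among 14134 genes. All r values rest on the same libraries, share their depth and carry no test. For Nfkbia they were Adgrl4 (0.97), Rasip1 (0.97) and Polr3e (0.97), for Icam1 Bhlhe41 (0.96), Gm340 (0.96) and Klf15 (0.94), and for Ptgs2 Rfx3, Thra and Abhd13 (0.98 each). For Osmr they were Setd1b (0.95), Trappc6a (0.95) and Ahdc1 (0.95), and for Il4ra Ppp4r1 (0.95), Plekha8 (0.95) and Mpc2 (0.95).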

How the data were processed

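The authors aligned reads of rRNA-depleted, strand-keeping libraries to GRCm38/mm10 with CLC Genomics Workbench. They deposited raw counts per gene of exon, intron, total and unique reads, and RPKM values. For Icam1 the exon reads (218) and intron reads (59) did not add up to all reads (315). Those of Vcam1, Il4ra and Stat3 also fell short. The RPKM values and the CPM values used here may therefore rest on different reads. The annotation release was not stated, and gene positions are those of GENCODE M21. Of 198 per-sample columns, 146 were not used, and columns holding the authors' own group comparisons were left out.

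Exon counts were fitted in edgeR 4.0.16 (R 4.3.3) with filterByExpr at a minimum count of 10, TMM scaling and group as the only factor for all 9 libraries. The quasi-likelihood test gave p-values, adjusted by Benjamini-Hochberg over 14140 genes, and an adjusted p under 0.05 was a call. The depth of 5321491 to 7178568 counts per library limits precision for genes with few reads. CPM values use TMM library sizes. Intron counts were fitted in the same way. The steps were tested on simulated data.

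The genes, lists, markers and tests were chosen with earlier results of these data known. The text names the 10 genes, their ligands and receptor partners, in each list up to 4 genes with the smallest adjusted p among those called, marker genes, and the 3 genes most similar in profile. Cebpd, Ccl2, Sele, Selp, Ptgs1, Stat5a and Gm38070 were named beyond this rule after their values or positions were seen. Alternatives were total reads, unique reads, DESeq2 1.42.0, upper-quartile scaling, library totals, no filter, a minimum count of 30, fits of only 6 libraries, a block for replicate number, limma 3.58.1 on RPKM with 0.1 or 1 added before taking log2, a 2-fold threshold, and leaving out each library. Leaving out libraries in the intron fit was added after the data were seen. No library was a copy of another (chi-square per df within groups 1.52 to 4.72). Some results that the rule would name are not reported here.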

Additional observations from a re-analysis of the deposited data

Results flagged for a closer look

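The effects of the 2 doses on Ptgs2 differed from each other. Against the same CTRL libraries the log2 difference was 0.51 at 0.7 MAC and -1.16 at 2.0 MAC, and the test of 2.0 MAC against 0.7 MAC gave -1.67 (adjusted p = 3.75e-04, edgeR). The 3 libraries of 2.0 MAC were all below the 3 of 0.7 MAC. The cortex and striatum marker sums also differed between these groups, and their part was not tested.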

How the results depend on the processing

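The number of the 9 genes called at 0.7 MAC against CTRL fell from 1 to 0 at a 2-fold threshold, with total gene reads, with DESeq2, in the 6 libraries compared alone, with the replicate block and with limma at either pseudocount, and lay between 0 and 1 without single libraries. At 2.0 MAC against CTRL it rose from 3 to 6 with total or unique gene reads and lay between 1 and 3 without single libraries, with Nfkbia alone called without CTRL replicate 1. Between the doses it was 1 in each setting. On intron reads 2 genes were called at 2.0 MAC against CTRL, and 1 to 3 without single libraries. Of the 126 partner and target genes, the 3 called at 0.7 MAC against CTRL became 1 at a 2-fold threshold, with the replicate block and with limma at either pseudocount, 6 with total gene reads, 9 with unique gene reads and 8 with no filter, and 1 to 6 without single libraries. The 17 called at 2.0 MAC against CTRL became 2 at a 2-fold threshold, 11 with DESeq2 and 7 to 18 without single libraries, and the 20 between the doses became 1 at a 2-fold threshold. The cause of these moves was not tested, except that the 2-fold threshold is stricter by construction. The minimum count of 30 removed Icam1 and Socs3.

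Directions turned only for genes that were not called. With total and unique gene reads, Il1r1 was at -0.30 and -0.31 (0.7 MAC against CTRL) and 0.18 and 0.21 (between the doses), and Vcam1 between the doses was at 0.024 and 0.019. With upper-quartile scaling, library totals and limma at pseudocounts of 0.1 and 1, Il1r1 at 2.0 MAC against CTRL was at 0.018, 0.022, 0.045 and 0.014 and Vcam1 between the doses at 0.031, 0.026, 0.078 and 0.054. Without single libraries, Socs3 lay between -0.13 and 0.22 (0.7 MAC against CTRL), -0.16 and 0.26 (2.0 MAC against CTRL) and -0.21 and 0.21 (between the doses), Il1r1 at 2.0 MAC against CTRL between -0.15 and 0.12, and, between the doses, Vcam1 between -0.16 and 0.086 and Il4ra between -0.049 and 0.34. Residual correlations of same-numbered libraries lay between -0.21 and -6.85e-05, with 0 of 9 pairs over 0.1. With 3 libraries per group, these values cannot exclude that replicate numbers mark a shared day or batch. The block changed no call of the 9 genes at 2.0 MAC. It removed the call of Nfkbia at 0.7 MAC against CTRL (adjusted p = 0.0920, edgeR). Of 534 values of single genes under an alternative, 478 kept their direction and their side of the threshold. Most of the 534 were of results not called in the first place, which count as kept when they stay uncalled. A call was lost in 19 values.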
